A study of Mus musculus with 8 samples.

Results

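The genes described here were Morc1 and 9 genes of the piRNA pathway (Piwil1, Piwil2, Mael, Pld6, Tdrd1, Tdrd9, Asz1, Ddx4 and Gtsf1), taken as the rows of the deposited gene table whose symbol equalled a listed name. All 10 were found among the 25574 genes of the table, and each passed the filter on low values (mean above 0.1 FPKM, a level scaled to gene length and library size, in at least 1 dataset). The genes were chosen by their FPKM in these polysomal and non-polysomal libraries, so those values are given as a description without a test. The study asked which transcripts are on polysomes when the mouse oocyte resumes meiosis. Fully grown oocytes of 8 weeks old CD1 females, 46 h after 5 IU of pregnant mare serum gonadotropin, were isolated in 100 µM IBMX, which holds them at the germinal vesicle stage, and were then cultured without it for 180 min, the oocytes whose nuclear envelope had broken down (NEBD) being selected in the course of it. Both datasets share a treatment of 10 min with 0.1 mg/ml cycloheximide, which freezes ribosomes on the mRNA, and each profile came from 200 oocytes separated on a sucrose gradient into 10 fractions. Fractions 2 to 5 were pooled as the non-polysomal (NP) RNA and fractions 6 to 10 as the polysomal (P) RNA, with 4 libraries of each, described by the study as independent biological replicates. Per the study, NP covered the peaks of ribosomal subunits and single ribosomes. Fraction 1 was left out, and the study could not fully exclude stored RNA-protein particles in it. The study also could neither show nor exclude heavy stored particles among the polysomes.

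piRNAs are small RNAs of the germline that are loaded onto PIWI proteins of the Argonaute family and direct the silencing of transposons, by slicing their transcripts and by guiding methylation of their DNA. Precursors are cut on the outer membrane of mitochondria, and the PIWI proteins are held by Tudor proteins in perinuclear granules together with the helicase DDX4. In the mouse the pathway is required for spermatogenesis, whereas females lacking most of its members are fertile. MORC1 is a nuclear ATPase that acts in transposon silencing in the male germline.

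The labelled cell type was checked first. All 12 oocyte markers were above 0, 11 of them above 1 FPKM in each of the 8 libraries, and their summed level was 7215 to 14450.2 FPKM in NP and 8782 to 33049 FPKM in P. In Figla and Nobox all NP libraries lay above all P libraries, as for 5.92% of all genes tested, and the other oocyte markers overlapped. Figla was at 7.81 to 17.4 FPKM in NP and 0 to 3.44 FPKM in P. Nobox was at 308 to 591 FPKM in NP and 46.6 to 241 FPKM in P. Of 12 markers of granulosa and cumulus cells, 10 were above 0 in at least 1 library, with sums of 6.25 to 128 FPKM in NP and 10.5 to 62.6 FPKM in P, and Foxl2 and Inhba were at 0 in all libraries. The highest were Cyp19a1, at 6.07, 6.49, 32.3 and 75.2 FPKM in NP and 15.2, 62.6, 0.190 and 0.629 FPKM in P, and Cyp11a1, at up to 46.4 FPKM in NP replicate 4 and 17.9 FPKM in P replicate 4. For 14086 of the 15585 genes above 0, all values above 0, times a gene length, were whole multiples of a step of their library. For 7103 of them the length was searched so as to fit. The steps gave a scaling number of 1299377 to 7594637 for NP and of 2677946 to 4699328 for P. In NP 11703 to 13753 genes were above 0, and in P 9139 to 11339. Values are shares of each library, so more of a transcript in a pool and less of all other RNA in that pool cannot be told apart. Over the 14292 genes tested, the median log2 difference (P minus NP, of log2(FPKM + 1)) was −0.39, and the scaling moved it, to −0.02 when libraries were quantile normalized and to 0.57 when they were centred on their medians.

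The 10 genes covered a wide range of abundance. In NP the order of the mean levels in FPKM, a scale that is per length, was Gtsf1 (807), Mael (268), Morc1 (266), Tdrd1 (162), Tdrd9 (97.5), Piwil1 (21.0), Ddx4 (20.1), Asz1 (10.1), Piwil2 (5.09) and Pld6 (0.649). Neighbours in this order overlapped in their libraries, except that Tdrd9 was above Piwil1 and Piwil2 above Pld6 without overlap. In P the order was Gtsf1 (324), Tdrd1 (257), Tdrd9 (50.5), Mael (46.4), Asz1 (20.5), Piwil1 (15.2), Morc1 (8.80), Ddx4 (4.51), Pld6 (1.91) and Piwil2 (0.950), and only Tdrd1 stood above its next neighbour without overlap. Morc1 thus moved from place 3 in NP to place 7 in P, and Asz1 from place 8 to place 5.

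**Figure D1:**
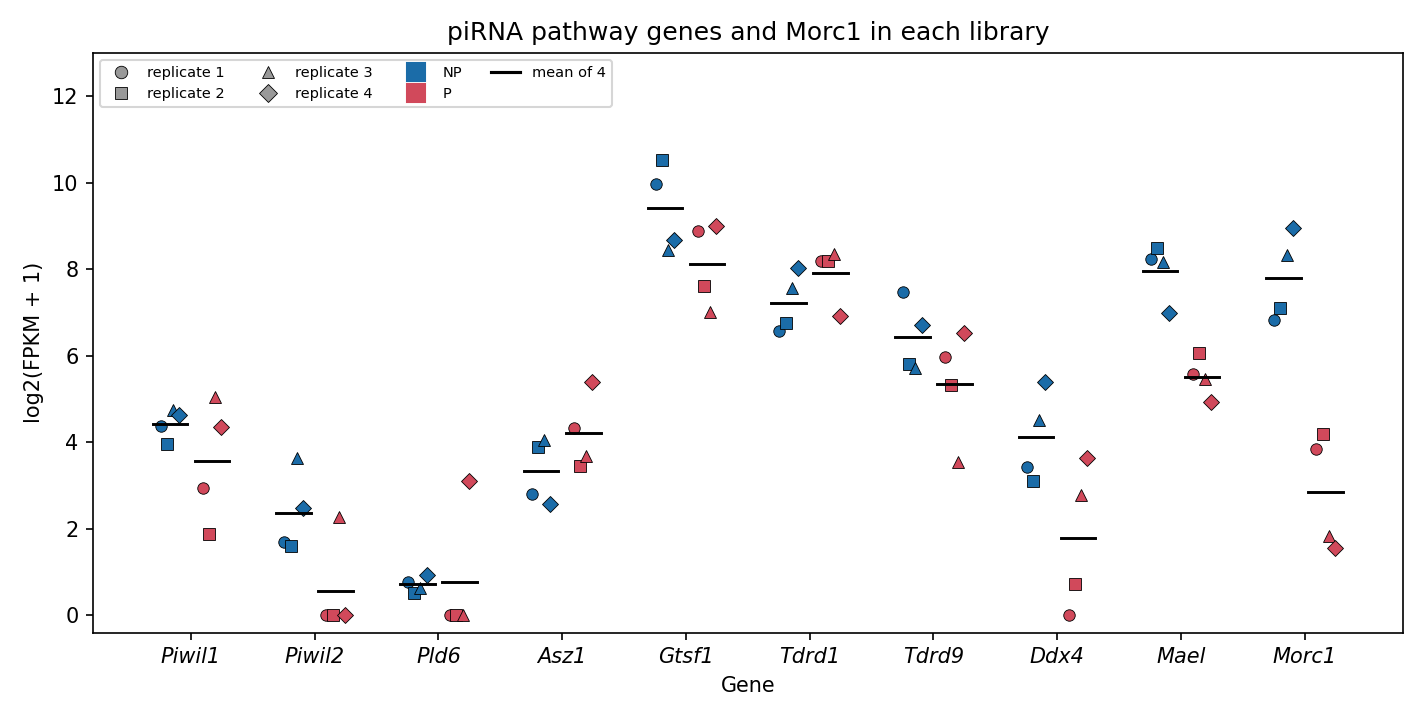
Level of each gene in each library, as log2(FPKM + 1) on the vertical axis, with 4 NP and 4 P libraries per gene. The NP and P libraries are apart for Morc1 and Mael and overlap for the other 8 genes.

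Morc1 (chr16:48431237-48630905, plus strand, GRCm38) was at 113, 136, 319.9 and 497 FPKM in NP replicates 1 to 4. It was at 13.3, 17.4, 2.58 and 1.96 FPKM in P replicates 1 to 4. All NP libraries lay above all P libraries, and P replicates 3 and 4, whose numbers match the highest NP libraries, held the lowest levels. The means were 266 ± 179 FPKM in NP and 8.80 ± 7.73 FPKM in P (SD, n = 4 each), a ratio of 30.3 that stayed between 21.6 and 44.9 when any single library was left out. On the log2 scale the difference of P minus NP was −4.94 (standard error 0.78), the third lowest of the 14292 genes tested. The values rested on 539 to 11507 steps in the NP libraries and on 16 to 190 in the P libraries. Of the granulosa markers, Cyp19a1 had the same order of the 4 NP libraries as Morc1 (6.07, 6.49, 32.3 and 75.2 FPKM). Among the members, Tdrd1 had this NP order as well (94.1, 107, 188 and 261 FPKM). In P, Cyp19a1, like Morc1 and unlike Tdrd1, was higher in replicates 1 and 2 than in replicates 3 and 4. Cyp11a1 differed from Morc1, at 0.176, 0, 3.25 and 46.4 FPKM in NP and at 0.12, 0, 0 and 17.9 FPKM in P. In P, Amh, Inha, Hsd17b1, Gja1 and Lhcgr were above 0 only in replicate 4, Kitl only in replicate 3 and Star only in replicate 1. Unlike Morc1, these markers overlapped between the datasets, and their part in the Morc1 values was not tested.

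Mael (chr1:166201385-166238744, minus strand) encodes Maelstrom, a protein of germ granules and nucleus needed for transposon silencing. Its level was 300.3, 359.9, 285 and 126 FPKM in NP replicates 1 to 4 and 46.5, 66.4, 43.2 and 29.5 FPKM in P replicates 1 to 4. The lowest NP library, replicate 4, was above the highest P library, replicate 2, and replicate 2 was the highest and replicate 4 the lowest in both datasets. The mean was 268 ± 99.8 FPKM in NP and 46.4 ± 15.2 FPKM in P, a ratio of 5.77, or 5.11 to 6.79 with any single library left out. The log2 difference was −2.46 (standard error 0.56), and it was −1.50 with libraries centred on their median.

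Morc1 and Mael have short 3′ untranslated regions in the GENCODE M21 annotation, 88 bases for Morc1 and 163 for Mael, beside a median of 986 over 11023 tested genes. For each gene 1 transcript was used, that with the longest coding sequence, and other transcripts of a gene may differ. This transcript has 3045 bases for Morc1, 1546 for Mael, 747 for Gtsf1 and 948 for Pld6. All annotated exons of these genes together hold 6479, 1733, 1390 and 1757 bases. Among the other members only Gtsf1, with 118 bases, had one as short as these, followed by Pld6 (275), Asz1 (287), Tdrd9 (574), Ddx4 (610), Piwil1 (1165), Tdrd1 (1310) and Piwil2 (1803). The ends of these regions are shown because cytoplasmic polyadenylation, which turns on the translation of stored mRNAs during oocyte maturation, needs a hexamer for cleavage and polyadenylation and a cytoplasmic polyadenylation element close to the end of the mRNA. Each line gives 30 bases of GRCm38 on the transcript strand, 5′ to 3′, from the coordinates that follow in the text. Capitals mark the hexamer AATAAA or ATTAAA, and for Ddx4 the element TTTTAT.
Morc1: cttaaaaccactAATAAAgaaaactggaaa
Mael: actatttcatagATTAAAagtaattgtggt
Tdrd1: cctgattcaggcAATAAAgccacttgtttt
Asz1: aatcacatgcaaAATAAAtgtttggtattc
Ddx4: acaaatgtttgcTTTTATaatatacagatt
The stretches lie at chr16:48630868-48630897 for Morc1, chr1:166201394-166201423 for Mael, chr19:56869976-56870005 for Tdrd1, chr6:18050975-18051004 for Asz1 and chr13:112598371-112598400 for Ddx4. The hexamer began 21 bases before the annotated end in Morc1, 27 in Mael, 25 in Tdrd1 and 29 in Asz1, and the TTTTAT of Ddx4 began 54 bases before the end, with a hexamer at 27.

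The last 80 bases of the 3′ untranslated region of the transcript used for each gene were searched on the transcript strand for 3 kinds of motif. TTTTAT or TTTTAAT was found in 1 of the 10 genes, Ddx4, and in 16.3% of the 11023 tested genes with a window of this length. A hexamer was found in 8 of 10, all but Pld6 and Gtsf1, and in 79.3% of the tested genes. The Pumilio motif TGTANATA was found in 0 of 10 and in 4.06% of the tested genes. The motifs may overlap one another, and a gene was counted once for each kind. A match is a run of letters in this window and not a measured site.

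The 2 genes for PIWI proteins differed in level, Piwil1 lying above the middle of the tested genes in each library (percentiles 54.5 to 84.1) and Piwil2 at percentiles 11.1 to 62.7. Piwil1 (MIWI, chr5:128736246-128755474) was at 19.8, 14.6, 26.0 and 23.7 FPKM in NP and at 6.69, 2.69, 32.1 and 19.4 FPKM in P, replicates 1 to 4 in order. P replicate 3 was the highest of all 8 libraries and P replicates 1 and 2 the lowest, so that the datasets overlapped, and the log2 difference of −0.87 (standard error 0.79) became 0.08 with libraries centred on their median, then still below the 0.57 of all genes. Piwil2 (MILI, chr14:70372480-70429094) was at 2.23, 2.04, 11.5 and 4.61 FPKM in NP, and in P it was at 3.80 FPKM in replicate 3 and listed at 0 in the other replicates. A limit of 3 steps in the P libraries at 0 allows levels of up to 0.130, 0.190 and 0.228 FPKM in replicates 1, 2 and 4, all below the lowest NP library. The log2 difference of Piwil2 was −1.79 (standard error 0.82), or −4.02 with a pseudocount of 0.1 and −5.65 with voom, a limma method for counts, on the recovered steps. These limits and the floors given further on cover counting error only.

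The other 3 members outside the Tudor and helicase group act on the maturation of piRNAs and PIWI proteins, and they differed widely in level. Gtsf1, a small zinc finger protein that is a cofactor of PIWI slicing (chr15:103402405-103430470), was at 1009, 1462, 347 and 411 FPKM in NP and at 469, 194, 129 and 507 FPKM in P. It was at percentiles 95.6 to 99.7 of the tested genes over the 8 libraries, and P replicates 1 and 4 lay above NP replicates 3 and 4, with a log2 difference of −1.28 (standard error 0.66). Asz1, an ankyrin repeat scaffold on the outer mitochondrial membrane (GASZ, chr6:18050964-18109061), was at 5.98, 13.9, 15.5 and 4.98 FPKM in NP and at 19.1, 10.0, 11.9 and 40.8 FPKM in P. The highest levels were in P replicates 4 and 1 and the lowest in NP replicates 4 and 1, so that the datasets overlapped through the other replicates. The P mean of Asz1 was 2.03 times the NP mean, and the log2 difference of 0.89 (standard error 0.75) was the highest of the 10 genes. Pld6, the mitochondrial nuclease MitoPLD that cuts piRNA precursors (chr11:59783897-59787645), was at 0.713, 0.438, 0.547 and 0.899 FPKM in NP. In P it was at 7.65 FPKM in replicate 4 and listed at 0 in replicates 1 to 3, where 3 steps would allow up to 0.363, 0.533 and 0.384 FPKM. Its NP values rested on 1 to 12 steps, and its log2 difference of 0.06 (standard error 0.65) was −0.71 without P replicate 4 and −1.30 with a pseudocount of 0.1.

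Among the Tudor proteins, which bind methylated arginines of PIWI proteins, the 2 members lay on opposite sides of 0. Tdrd1 (chr19:56826209-56870012) was at 94.1, 107, 188 and 261 FPKM in NP and at 290.4, 289.6, 326 and 120.0 FPKM in P. P replicates 1 to 3 lay above all NP libraries, and P replicate 4 lay below NP replicates 3 and 4. The P mean was 1.58 times the NP mean, with a log2 difference of 0.68 (standard error 0.57). Tdrd9, which joins a Tudor domain to a helicase (chr12:111971559-112068854), was at 178, 55.5, 51.7 and 104 FPKM in NP and at 61.3, 39.1, 10.7 and 90.8 FPKM in P. In each replicate number the NP value was above the P value, but the datasets overlapped and the log2 difference was −1.10 (standard error 0.73). The annotation places Rd3l on the opposite strand within Tdrd9, and 4930553I04Rik likewise at Piwil1, and since the libraries do not mark strand, reads of such partners cannot be told apart where they overlap.

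Ddx4, the DEAD-box helicase VASA and a classical germ cell marker (chr13:112598333-112652310), was at 9.79, 7.56, 22.0 and 41.2 FPKM in NP. In P it was listed at 0 in replicate 1, where 3 steps would allow up to 0.224 FPKM, and it was at 0.657, 5.84 and 11.5 FPKM in replicates 2 to 4. NP and P overlapped only because P replicate 4 lay above NP replicates 1 and 2, and replicate 4 was the highest in both datasets. The NP mean was 4.47 times the P mean, and 2.91 to 9.30 times with any single library left out, with a log2 difference of −2.33 (standard error 0.99), or −3.42 with a pseudocount of 0.1 and −4.12 with voom.

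**Figure D2:**
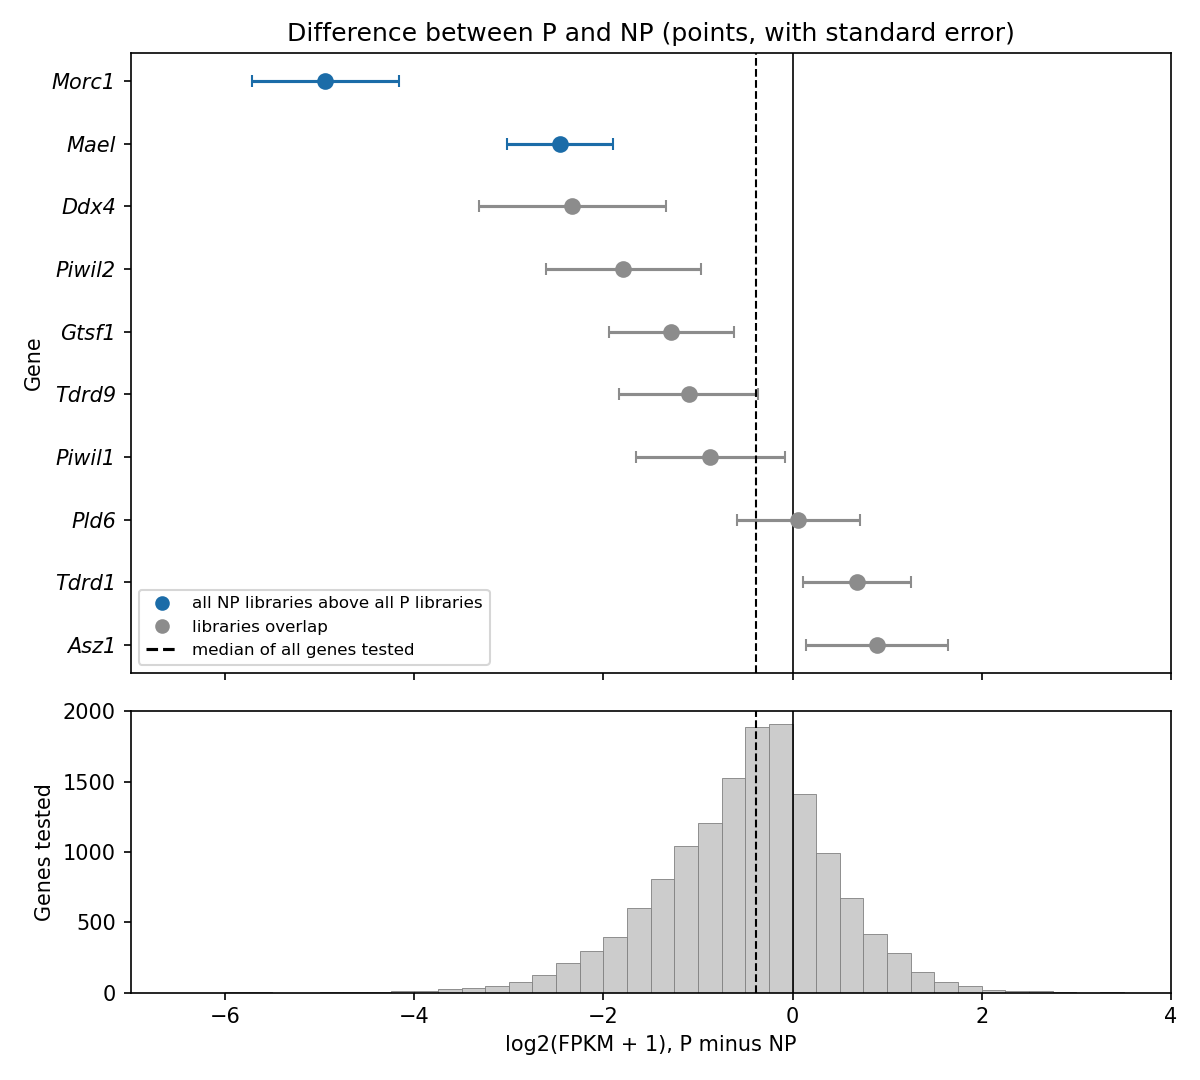
Log2 difference of P minus NP for each gene (points, with standard error from the fit of all genes) above the distribution of the same difference over the 14292 genes tested. Morc1 lies at −4.94 and Mael at −2.46, while Tdrd1, Asz1 and Pld6 lie above 0, and the dashed line marks the median of all genes at −0.39. Piwil1 crosses to 0.08 with libraries centred on their median.

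As a list, 7 of the 10 genes had a log2 difference below 0, where 71.4% of all genes tested did, and their median was −1.19 beside −0.39 for all genes. In 2 of 10, Morc1 and Mael, all NP libraries lay above all P libraries, which 5.92% of all genes tested did, and in 0 of 10 did all P libraries lie above all NP libraries (0.357% of all genes). These counts come from the contrast by which the genes were chosen. The share of all genes below 0 was 51% after quantile normalization and 27% with libraries centred on their median. The signs held under quantile normalization for all 10 genes and under median centring for all but Piwil1. With that centring, where all genes had a median of 0.57, the log2 difference was −1.37 for Ddx4, −0.83 for Piwil2, −0.33 for Gtsf1, −0.14 for Tdrd9, 1.64 for Tdrd1 and 1.84 for Asz1.

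Ranks within a library do not depend on the scaling between libraries. They do depend on how many genes are at 0, which share percentiles 4.32 to 9.47 in NP and 11.1 to 18.2 in P. Morc1 was at percentiles 92.8 to 98.7 of the tested genes in the NP libraries and at 55.0 to 76.9 in the P libraries. Mael was at 93.9 to 98.5 in NP and at 82.6 to 91.2 in P. Both stood apart by rank as by level. The ranks come from the same FPKM values by which the genes were chosen. They are thus a description and no separate evidence, as are the counts below. Asz1, whose FPKM values overlapped, was at percentiles 54.7 to 68.1 in NP and 69.9 to 85.7 in P. Its rank was thus higher in every P library than in any NP library, and the part of the genes at 0 in this was not tested. Ranks in all NP libraries were above those in all P libraries for 2 of the 10 genes and for 2.53% of all genes tested, and the reverse held for 1 of the 10 and for 4.62%. Tdrd1 was at 91.3 to 97.1 in NP and 93.6 to 98.7 in P, among the most abundant transcripts in both.

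**Figure D3:**
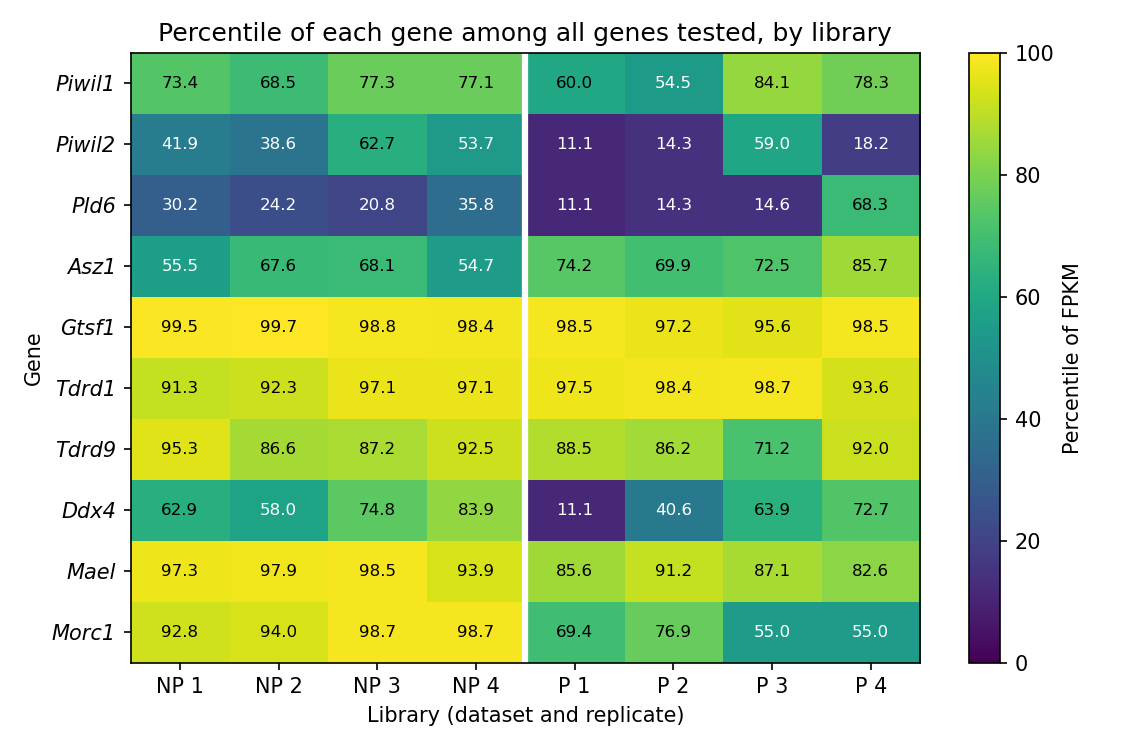
Percentile of each gene among the 14292 tested genes of a library, with libraries in columns and genes in rows. Morc1 and Mael are lower in the 4 P libraries than in the 4 NP libraries, Asz1 is higher in the P libraries, and genes listed at 0 share the percentile of all zeros of that library (11.1 to 18.2 in P).

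Other genes of the pathway were taken from a list of 24, of which 23 were in the table (Gtsf2 was not found under this symbol). Btbd18, under an older symbol, was at 0 in all libraries, and 22 were tested. With limma none of the 22 passed the adjusted p threshold of 0.1, which 0.021% of all genes passed, and 1 had an unadjusted p under 0.05, where 9.95% of all genes did. With voom on the recovered steps, 0 of 21 passed, beside 1.48% of all genes, and 2, Spocd1 and Fkbp6, had an unadjusted p under 0.05, beside 13.6% of all genes. Their median log2 difference was −0.36, close to the −0.39 of all genes, over a range of −2.81 to 1.60, and 16 were below 0 and 6 above. The libraries overlapped in each of the 22. Tdrd12, a Tudor protein with a helicase domain, was the most abundant of them, at 313 ± 72.7 FPKM in NP and 293 ± 213 FPKM in P (log2 difference −0.69, standard error 0.79). Fkbp6, a co-chaperone that acts in PIWI loading, was at 100.4 ± 34.2 FPKM in NP and at 0 to 208 FPKM in P (log2 difference −2.81, standard error 1.38, limma adjusted p = 0.519). Dnmt3l, a cofactor of DNA methylation, was at 93.9 ± 36.1 FPKM in NP and 73.1 ± 42.2 FPKM in P. Spocd1, which links nuclear piRNAs to DNA methylation, was at 17.1 to 94.3 FPKM in NP and 0 to 34.8 FPKM in P (log2 difference −2.70, standard error 1.17), with an unadjusted p of 0.0365 and an adjusted p of 0.479 from limma.

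**Figure D4:**
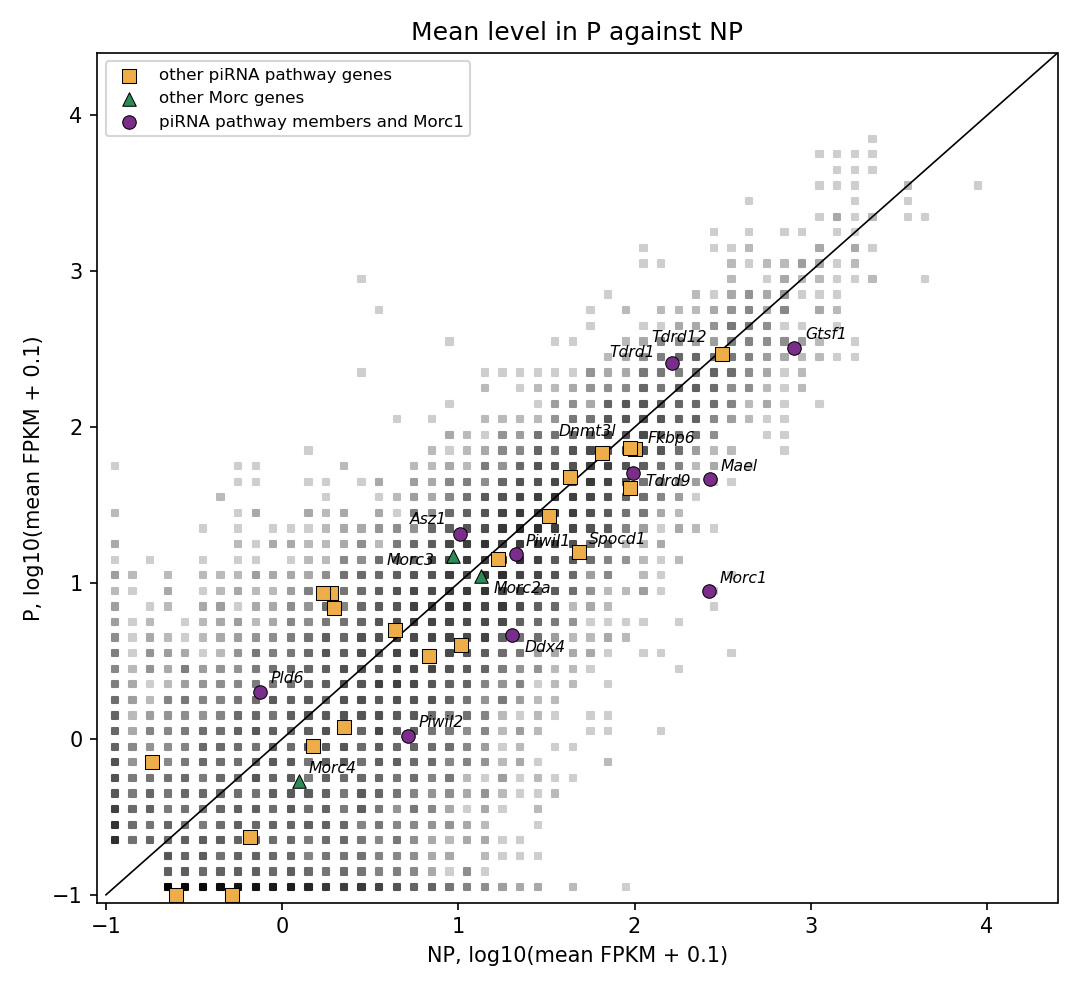
Mean level in P against mean level in NP, each as log10(FPKM + 0.1), for the 10 genes (circles), other piRNA pathway genes (squares), other Morc genes (triangles) and all tested genes (grey, darker where more genes fall), with a line of equal level. Of the 10 genes Morc1 lies farthest below the line, followed by Mael, Piwil2 and Ddx4. The triangles of Morc2a and Morc3 lie closer to the line than that of Morc4.

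The other Morc genes were at lower levels than Morc1 in NP. Morc2b was at 0 in all libraries. None of the 3 tested genes passed the adjusted threshold with limma or with voom, which 0.021% and 1.48% of all genes passed. None of the 3 had an unadjusted p under 0.05 by either, where 9.95% of all genes did with limma and 13.6% with voom. Morc2a was at 13.4 ± 13.8 FPKM in NP and 11.0 ± 12.3 FPKM in P, and Morc3 at 9.28 ± 10.7 FPKM in NP and 14.7 ± 16.3 FPKM in P. Morc4 was near the floor, at 0 to 4.56 FPKM in NP and 0 to 0.950 FPKM in P. Their log2 differences were −0.20 (standard error 1.05), 0.15 (1.13) and −0.15 (0.54). Whether Morc1 differed from them was not tested, since its own contrast chose it.

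Genes of the microRNA and endogenous siRNA pathways, the other small RNA pathways of the mouse oocyte, were set beside these as a list of 10. None passed the adjusted threshold with limma or with voom, beside 0.021% and 1.48% of all genes. An unadjusted p under 0.05 was found for 1 of 10 with limma (Tarbp2), beside 9.95% of all genes, and for 2 of 10 with voom (Tarbp2 and Ago2, listed as Eif2c2), beside 13.6%, and their median log2 difference was −0.22. Tarbp2, a partner of Dicer, was at 91.0 ± 50.9 FPKM in NP and 25.4 ± 10.1 FPKM in P, and all its NP libraries lay above all its P libraries, as for 5.92% of all genes (log2 difference −1.71, standard error 0.65, limma unadjusted p = 0.0194, adjusted p = 0.425). Dicer1, the nuclease itself, was at 82.2 ± 23.2 FPKM in NP and 77.3 ± 44.8 FPKM in P (log2 difference −0.28, standard error 0.63). Xpo5, the exporter of microRNA precursors, was at 28.6 to 61.5 FPKM in NP and 27.2 to 1119 FPKM in P, where replicate 3 alone was above the other P libraries at 27.2 to 85.7 FPKM.

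The genes whose pattern was most like that of a member were sought by Pearson's r of log2(FPKM + 1) over the 8 libraries, among 6415 genes with a mean above 10 FPKM in at least 1 dataset. These values are a description, over points that fall into 2 datasets and over libraries that differ in depth. For Morc1 they were Pigh (r = 0.993), Cops7b (0.972), Cab39l (0.971), Rpl12 (0.967) and Mtf1 (0.966). Pigh was at 14.8 ± 7.57 FPKM in NP and 0.928 ± 1.08 FPKM in P, and so lay below Morc1 in both. For Mael they were Wash (0.995), A4galt (0.988) and Gjb1 (0.975), each lower in mean in P. For Asz1 they were Wsb1 (0.919), Lclat1 (0.909) and Ik (0.892), and for Tdrd1 Zcchc2 (0.915), Neil3 (0.913) and Fkbp5 (0.904), all 6 with a higher mean in P. For Ddx4 they included Hist1h1a (0.970) and Fam98a (0.967). For Gtsf1 they were Klhl25 (0.965), Arrdc1 (0.965) and Slc25a1 (0.959), for Tdrd9 they included Gpx4 (0.940) and Adipor2 (0.935), and for Piwil1 they were Unk (0.948), Tmcc3 (0.940) and Actn1 (0.936). For Piwil2 they were 6820408C15Rik (0.989), Gstcd (0.958) and Qtrtd1 (0.952). For Pld6 they were Nup210 (0.974), Samd1 (0.973) and Pramef6 (0.971), and the likeness rests on P replicate 4, where Pld6 was above 0 in P.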

How the data were processed

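RNA-seq was analysed for 4 NP and 4 P libraries, grouped by their titles. RNA was depleted of rRNA, reverse transcribed with random and oligo-dT primers, amplified and made into libraries that do not mark strand. Per the submitters' processing notes, reads were checked with FastQC 0.11.5, trimmed with Trim Galore 0.4.1 and mapped to GRCm38 with HISAT2 2.0.5. The authors quantified genes in Seqmonk, and the deposited values are FPKM per library, not log-transformed. A deposited table of DESeq2 results (log2 fold changes, p values and FDR) and one of expressed genes (means and ratios per dataset) hold the authors' own comparisons and were not used.

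The members and gene lists were chosen with earlier results of these data known. P was compared with NP on log2(FPKM + 1) with limma 3.58.1 in R 4.3.3 (eBayes with trend, 2-sided), over 14292 genes whose mean FPKM exceeded 0.1 in either dataset, p values being adjusted after Benjamini-Hochberg and called under 0.1. FPKM are not counts, so whole steps were recovered from the values for 14086 of 15585 genes above 0 (tolerance 0.01 step, plus a share of 1e-05 of all steps of the value). These genes held 94.6% to 99.2% of the values above 0 of a library, a share that a search for gene lengths partly fixes. No source used here tells if such a step counts reads or fragments. Steps of amplified cDNA are not independent molecules.

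Genes named are the 10 members, genes of the other lists that passed the threshold, had an unadjusted p under 0.05, did not overlap or were among the 3 most abundant, and for each member the genes of highest correlation (5 for Morc1 and 3 for the others, of which 1 each for Ddx4 and Tdrd9 is not reported here). Single genes named for being at 0 or not found and Ago2 fall outside this rule and were chosen after their values were seen. Alternatives were the pseudocount, the filter, the scaling, the variance trend, a replicate block, leaving out each library and voom on the steps. Sequences and 3′ untranslated regions came from GRCm38 with GENCODE M21, from the transcript with the longest coding sequence of each gene.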

Additional observations from a re-analysis of the deposited data

Results flagged for a closer look

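In 40 groups of 4 libraries (the 10 members and the 10 other named genes of the lists, in each dataset), 4 held a library that stood far from the other 3 by Dixon's criterion. Chance alone flags about 1 in 20 groups of normally distributed values, which FPKM that are not log-transformed need not be. Piwil2 in P was at 3.80 FPKM in replicate 3 and at 0 in the others. Pld6 in P was at 7.65 FPKM in replicate 4 and at 0 in the others. In these 2 groups any value above 0 would meet the criterion, and the rate of 1 in 20 does not apply to them. Morc4 in NP, also a group near the floor, was at 4.56 FPKM in replicate 1 and at 0 to 0.0218 FPKM in the others. Xpo5 in P was at 1119 FPKM in replicate 3 and at 27.2 to 85.7 FPKM in the others.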

How the results depend on the processing

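Among all genes tested, 3 were called by limma, all higher in NP. The number called was 5 with a pseudocount of 0.1, 5 with a mean above 1 FPKM required, 0 without a filter, 0 with libraries centred on their median, 0 after quantile normalization, 20 without the variance trend, 0 to 5 with single libraries left out (0 without any of NP replicates 1 to 4 or P replicate 3, and 5 without P replicate 1), and 198 with voom on recovered steps (196 higher in NP and 2 higher in P, a fit added after seeing the data). Both pools came from the same 4 profiles, but no source used here says that equal numbers mark 1 profile, and deviations from the dataset means correlated at 0.0518 to 0.251 for equal numbers and −0.135 to 0.136 for unequal ones, with 7 of 8 libraries correlating best with their own number. A fit that blocked on the replicate number called 1 gene. The log2 difference of Morc1 stayed between −5.41 and −3.99 in all 16 and between −5.39 and −4.51 with single libraries left out.

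The median log2 difference of the members was −0.23 with libraries centred on their median and −1.53 to −0.99 with single libraries left out. Pld6 was listed at 0 in P replicates 1 to 3. Its sign turned, to −1.30 with a pseudocount of 0.1, to −1.48 with voom and to −0.71 without P replicate 4. For Piwil1 the sign turned, to 0.08, with median centring, which moved the median of all genes from −0.39 to 0.57. Of 144 values of the 9 other members under alternatives, 136 moved by less than the spread between replicates. The 136 include values that could not move. The filter settings, the replicate block and the fit without the variance trend leave the log2 difference of a gene as it is. The 6 that moved further without turning were Piwil2 (−4.02) with a pseudocount of 0.1, Piwil2 (−5.65) and Ddx4 (−4.12) with voom, and Mael (−1.50), Tdrd1 (1.64) and Asz1 (1.84) with median centring. The calls of the other piRNA pathway genes and of the other Morc genes were 0 under each alternative. The NP levels of Pld6 rest on 1 to 12 steps, so their counting error is large.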
